A study of Mus musculus with 20 samples.

Results

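The zinc-dependent histone deacetylases described here are 10 genes, Hdac1 to Hdac9 and Hdac11, taken by symbol from a table of 29671 genes measured by RNA-seq in mouse amygdala. They comprise 4 class I genes (Hdac1, Hdac2, Hdac3 and Hdac8), 4 class IIa genes (Hdac4, Hdac5, Hdac7 and Hdac9), the class IIb gene Hdac6 and the class IV gene Hdac11. All 10 passed the filter on low counts and were tested among 16727 genes. Each library came from 1 male C57B6 mouse, of a colony bred in house from Taconic stock, which had not been used for behaviour and was killed on postnatal day 84. Both amygdalae were punched from coronal sections. The 4 groups were the F2 generation of a stress lineage, the F2 generation of a no-stress lineage, the F1 generation of the stress lineage and the F1 generation of the no-stress lineage, with 5 mice in each (replicates 11 to 15, 16 to 20, 1 to 5 and 6 to 10 in that order). The lineages descend from mice that did or did not go through chronic unpredictable stress, and the labels name no stressor for the F1 and F2 mice themselves. They name no litter or sire, and littermates would be less independent than tests with n = 5 assume.

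Histone deacetylases remove acetyl groups from lysines, and on histone tails this generally makes chromatin less permissive for transcription. Class I enzymes are mostly nuclear and, apart from Hdac8, work inside repressor complexes (NuRD, Sin3 and CoREST for Hdac1 and Hdac2, a nuclear receptor corepressor complex for Hdac3). In mouse brain, Hdac2 and Hdac3 are known as restraints on memory formation. Class IIa enzymes have little deacetylase activity of their own, bind MEF2 transcription factors and move out of the nucleus once calcium-dependent kinases phosphorylate them and 14-3-3 proteins hold them in the cytoplasm. Hdac5 in mouse nucleus accumbens is known for limiting responses to cocaine and to chronic stress. Hdac6 is a cytoplasmic deacetylase of tubulin, and Hdac11 is best known as an enzyme that removes fatty acyl groups.

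The members share a catalytic domain but differ in base composition, which is set beside the expression values below. A stretch of 60 coding bases is printed for 4 of them, beginning at the codons of the paired histidines of the catalytic pocket, from GENCODE M21 transcripts on GRCm38. Hdac5 and Hdac7 are the GC-richest members, Hdac9 is a class IIa gene of low GC content and Hdac2 is a class I gene of low GC content. Capitals mark G and C.
Hdac5: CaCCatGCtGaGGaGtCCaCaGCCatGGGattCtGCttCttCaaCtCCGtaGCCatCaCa
Hdac7: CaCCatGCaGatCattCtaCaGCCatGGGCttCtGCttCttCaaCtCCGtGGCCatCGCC
Hdac9: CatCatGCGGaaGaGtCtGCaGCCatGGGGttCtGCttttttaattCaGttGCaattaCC
Hdac2: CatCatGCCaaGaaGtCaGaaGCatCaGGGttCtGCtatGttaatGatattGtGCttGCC
The stretch held 32 G or C bases of 60 in Hdac5, 33 in Hdac7, 27 in Hdac9 and 26 in Hdac2. Hdac5 matched Hdac7 at 51 of the 60 positions, Hdac9 at 46 and Hdac2 at 32. At the third codon position over the whole coding sequence, the GC content was 72.7% in Hdac5 and 38.3% in Hdac2. Hdac5 (ENSMUSG00000008855) lies at chr11:102194432-102230166 on the minus strand, Hdac7 (ENSMUSG00000022475) at chr15:97792664-97844502 on the minus strand, Hdac9 (ENSMUSG00000004698) at chr12:34047580-34917095 on the minus strand and Hdac2 (ENSMUSG00000019777) at chr10:36974544-37001889 on the plus strand of GRCm38.

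The deposited counts summed to between 13654890 and 13714805 per library, a near-equal total whose origin the sources do not describe, so the depth before that step is unknown. Levels are CPM, counts scaled to library size, here with TMM factors of 0.956 to 1.042. Central amygdala markers (6 genes, Prkcd and Crh among them) were detected in every group, with summed levels of 139 to 194 CPM in F2 stress, 154 to 203 CPM in F2 no-stress, 126 to 207 CPM in F1 stress and 128 to 208 CPM in F1 no-stress libraries. Most of this sum was Sst, at a mean of 111 CPM over all libraries, beside 16.8 CPM for Prkcd and 5.06 CPM for Crh. Pallial excitatory neuron markers (5 genes) ran from 355 to 1048 CPM in F2 stress and from 39.6 CPM, in replicate 20, to 1105 CPM in F2 no-stress libraries. Striatal medium spiny neuron markers, which a punch can pick up from the neighbouring striatum, varied widely. Their summed level (8 genes) ran from 302 to 4833 CPM in F2 stress and from 1103 to 4533 CPM in F2 no-stress libraries, and none of the 8 was called in F2. F2 stress replicate 14 had the lowest striatal level, and it had the highest value of its group for Hdac1, Hdac3, Hdac4, Hdac6, Hdac7 and Hdac11. It was also the lowest of all libraries in summed markers of myelinating oligodendrocytes (1577 CPM), microglia (177 CPM), endothelium (95.9 CPM) and neuronal activity (166 CPM). In bulk tissue, fewer cells of a type and less RNA per cell cannot be told apart.

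Per kilobase of merged exons, Hdac11 was the highest of the 10 genes at 37.8 ± 6.34 CPM per kb (mean ± SD of the 20 libraries), with a range of 25.6 to 52.5. Among class I genes, Hdac3 averaged 21.6 ± 1.58 CPM per kb, Hdac2 averaged 17.6 ± 1.96, Hdac1 averaged 6.40 ± 0.746 and Hdac8 averaged 2.34 ± 0.299. Among class II genes, Hdac5 (9.88 ± 2.18 CPM per kb) and Hdac6 (9.20 ± 1.52) stood above Hdac7 (3.06 ± 0.899), Hdac9 (2.61 ± 0.599) and Hdac4 (2.37 ± 0.369). Hdac11 exceeded Hdac3 in all 20 libraries, Hdac2 exceeded Hdac5 in all 20 and Hdac1 exceeded Hdac7 in all 20, with no overlap of ranges. Hdac6 also exceeded Hdac1 in all 20, although their ranges over the libraries met. Neighbours that did not separate were Hdac3 and Hdac2 (Hdac3 higher in 17 of 20), Hdac5 and Hdac6 (Hdac5 higher in 11 of 20) and the 4 lowest genes, Hdac7, Hdac9, Hdac4 and Hdac8. Per kilobase of the longest transcript, Hdac1 stood above Hdac6, Hdac8 moved from rank 10 to rank 7 and Hdac7 was last. On that scale the ranges of Hdac2 and Hdac5 met. In F2 no-stress replicate 16, Hdac5 was at 23.3 and Hdac2 at 22.8 CPM per kb. Class I genes made up 42.5% of the summed level per kb, Hdac11 33.5%, class IIa 15.9% and Hdac6 8.14%.

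**Figure D1:**
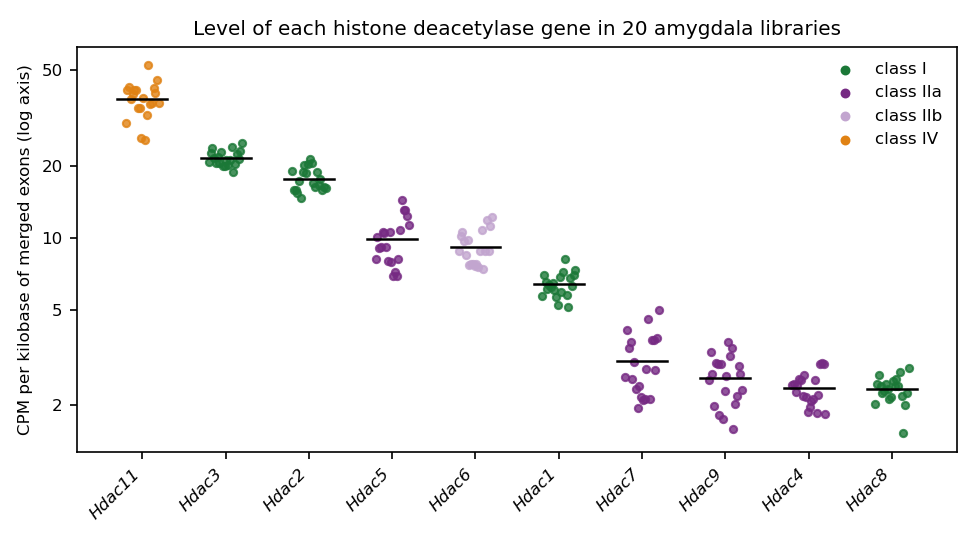
Level of each histone deacetylase gene in CPM per kilobase of merged exons on a log axis, with 1 point per library (20 each), colour by class and a line at the mean. Hdac11 lies above all others at a mean of 37.8 CPM per kb, and 3 class IIa genes and Hdac8 form the lowest tier.

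The precision differed by gene. Hdac8 had the fewest reads, 100 to 193 counts per library, and Hdac11 the most, up to 2870. Within groups, Hdac3 was the steadiest member, with a coefficient of variation of 7.40%, and Hdac7 the most variable at 25.0%. Hdac1 values are uncertain, because the processed pseudogene Gm10093 is 99.4% identical to it over 1444 bases and holds 41 to 90 counts of its own per library, against 234 to 401 for Hdac1. Hdac11 shares 594 bases in antisense with the gene model Gm44002, and whether counting used strand is not stated.

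The lineages were compared first in the F2 mice. In F2, 1 of the 10 histone deacetylase genes passed the test. It was the class IIa gene Hdac5, which was lower in the stress than in the no-stress lineage. Of all 16727 genes tested, 7.92% were called in this comparison and 5.28% were called lower, so 1 of 10 is near the background. Hdac5 had 60.9, 63.6, 60.9, 71.4 and 95.2 CPM in F2 stress mice, against 125.9, 114.7, 115.4, 108.6 and 99.7 CPM in F2 no-stress mice. Every F2 stress library lay below every F2 no-stress library, which held in the same direction for 2.36% of all genes, and the closest pair was 95.2 CPM in F2 stress replicate 15 and 99.7 CPM in F2 no-stress replicate 20. The mean was 70.4 ± 14.5 CPM in F2 stress and 112.8 ± 9.64 CPM in F2 no-stress mice (SD, n = 5 each). The log2 fold change was -0.68 ± 0.12 (SE), a level 0.624 times that of the no-stress lineage, with an adjusted p of 0.00662 by edgeR's quasi-likelihood test with Benjamini-Hochberg adjustment.

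Hdac5 was called in F2 in each of the 20 fits that left out a single library, with adjusted p from 0.0015 to 0.0318. It was not called with an offset that removes, library by library, the trend of counts over GC content and length (log2 fold change -0.25 ± 0.07, adjusted p = 0.115), nor when only the F2 groups entered the edgeR fit (-0.67, adjusted p = 0.0833).

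The other class II genes did not pass the test in F2. Hdac7, the class IIa member known from blood vessel endothelium and thymocytes, had 14.3, 14.4, 19.1, 31.0 and 14.4 CPM in F2 stress mice, against 25.4, 25.3, 18.996, 25.8 and 33.7 CPM in F2 no-stress mice. The groups overlapped through F2 stress replicate 14 at 31.0 CPM and F2 no-stress replicate 18 at 18.996 CPM. Its log2 fold change was -0.47 ± 0.20 (adjusted p = 0.154, edgeR). Hdac6 had 45.2, 43.8, 51.3, 63.1 and 43.3 CPM in F2 stress mice, against 51.1, 68.8, 51.4, 65.3 and 71.2 CPM in F2 no-stress mice. Replicate 14 again was the high library of the stress group, and the log2 fold change of Hdac6 was -0.32 ± 0.12 (adjusted p = 0.0933, edgeR). Hdac4, a class IIa repressor prominent in neurons and in bone growth, had 31.1, 32.9, 33.8, 40.4 and 29.3 CPM in F2 stress mice, against 35.1, 47.3, 47.6, 47.3 and 29.2 CPM in F2 no-stress mice. Its no-stress group split into 3 libraries near 47 and 2 lower ones, and the log2 fold change was -0.30 ± 0.13 (adjusted p = 0.140, edgeR). Hdac9, the class IIa gene whose short forms lack the catalytic domain, had the opposite sign, with 42.9 ± 12.3 CPM in F2 stress and 35.7 ± 5.47 CPM in F2 no-stress mice and a log2 fold change of 0.27 ± 0.20 (adjusted p = 0.425, edgeR).

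Single libraries decided how many class II genes were called. Without F2 stress replicate 14, Hdac7 and Hdac6 were also called, and without F2 no-stress replicate 20, Hdac4 was also called. Without both, of which replicate 14 was the library lowest in summed striatal markers and replicate 20 the lowest in summed pallial markers, 5 members were called in F2. These were Hdac5 (-0.73), Hdac7 (-0.62, adjusted p = 0.0182), Hdac4 (-0.48, adjusted p = 0.00948) and Hdac6 (-0.37, adjusted p = 0.0351), all lower in the stress lineage, and Hdac8 (0.36, adjusted p = 0.0461), higher (edgeR). That removal was chosen after the data were seen. Calls over all genes rose in these fits as well, from 1324 of 16727 with all libraries. They numbered 1903 of 16876 without replicate 14, 1655 of 16830 without replicate 20 and 2213 of 16763 without both.

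None of the 4 class I genes passed the test in F2. Hdac2 had 95.5, 91.9, 75.9, 73.3 and 84.4 CPM in F2 stress mice, against 74.2, 78.5, 71.2, 73.1 and 72.6 CPM in F2 no-stress mice. The no-stress group was tight and the stress group spread upward from it, with a log2 fold change of 0.19 ± 0.09 (adjusted p = 0.207, edgeR). Hdac8, an X-linked deacetylase whose substrates include the cohesin subunit Smc3, had 12.3 ± 0.706 CPM in F2 stress and 10.5 ± 2.35 CPM in F2 no-stress mice (0.23 ± 0.12, adjusted p = 0.254). Hdac1, the close paralogue of Hdac2, had 23.5 ± 3.38 CPM in F2 stress and 22.4 ± 2.93 CPM in F2 no-stress mice (0.07 ± 0.11, adjusted p = 0.738). Hdac3, the catalytic subunit of a nuclear receptor corepressor complex, had 85.5 ± 7.75 CPM in F2 stress and 90.8 ± 7.24 CPM in F2 no-stress mice (-0.09 ± 0.07, adjusted p = 0.482). Hdac11, of class IV, had 147.4, 98.4, 125.8, 202.0 and 138.9 CPM in F2 stress mice, a wide spread with replicate 14 at the top, against 140.1 to 175.9 CPM in F2 no-stress mice (-0.12 ± 0.15, adjusted p = 0.659).

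**Figure D2:**
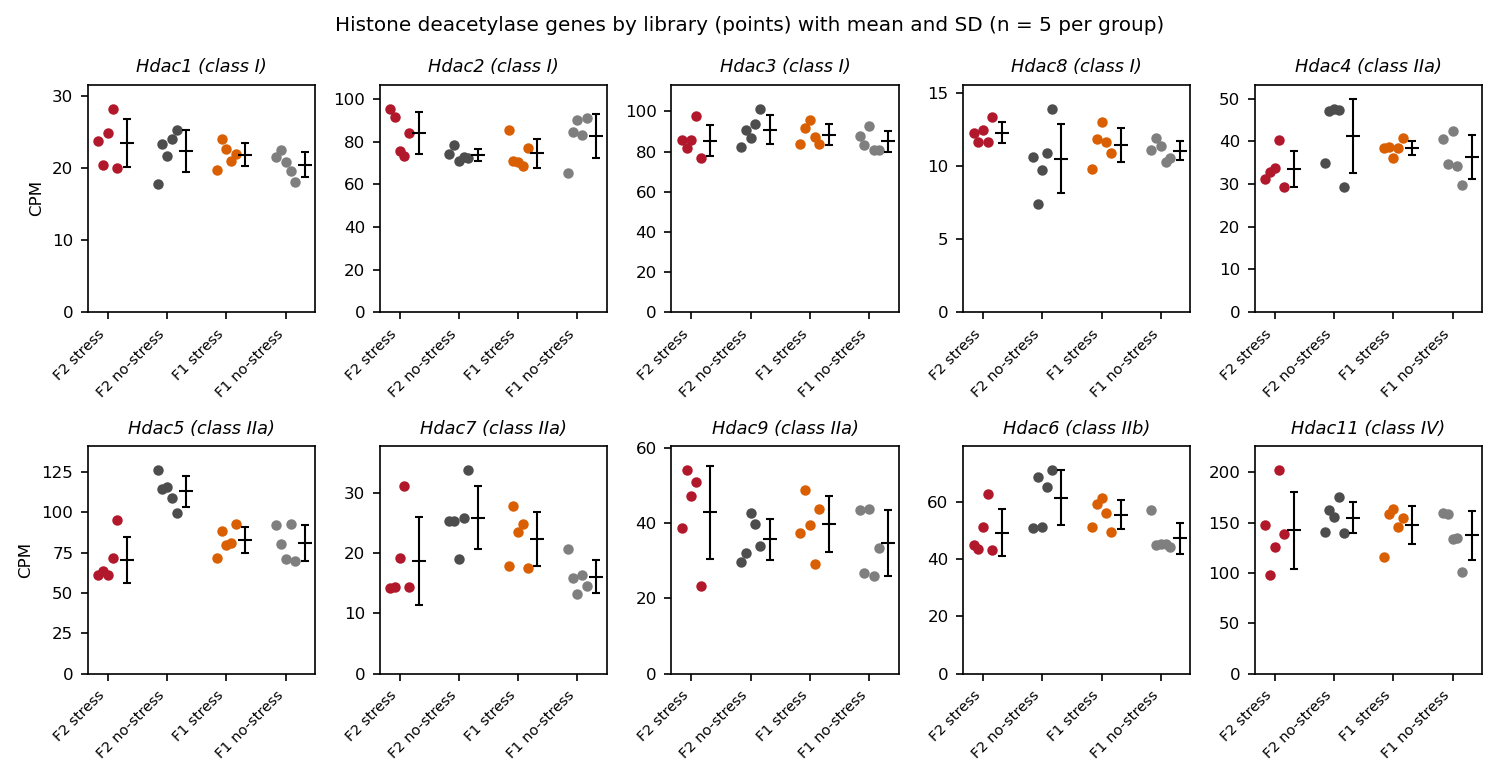
CPM of the 10 genes in each library (points, replicates from left to right) with the mean and SD of each group of 5 mice, on linear axes from 0. Hdac5 in F2 stress mice sits between 60.9 and 95.2 CPM, below all 5 F2 no-stress mice, while the other 9 genes overlap between the F2 lineages.

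The fitted F2 values of class II and class I genes had medians of opposite sign. The median log2 fold change of the 5 class II genes was -0.32, with 4 negative and 1 positive, and that of the 4 class I genes was 0.13, with 1 negative and 3 positive, against 0.00 over all genes tested, of which 49.8% were negative. The summed class II level was 24.3 ± 3.13 CPM per kb in F2 stress and 32.3 ± 1.33 CPM per kb in F2 no-stress mice, and the summed class I level was 49.3 ± 2.28 CPM per kb in F2 stress and 47.6 ± 2.82 CPM per kb in F2 no-stress mice. As a log2 ratio, class II over class I was -1.28, -1.11, -1.001, -0.79 and -0.96 in F2 stress libraries, against -0.51, -0.51, -0.57, -0.55 and -0.65 in F2 no-stress libraries. All 5 stress libraries lay below all 5 no-stress libraries. Singly, only Hdac5 of the class II genes separated these groups. Within the class II sum, Hdac5 held 8.02 CPM per kb in F2 stress and 12.9 in F2 no-stress mice. In the same order, Hdac6 held 8.48 and 10.6, Hdac7 2.76 and 3.82, Hdac4 2.12 and 2.61, and Hdac9 2.93 and 2.44. The ratio is a description of genes chosen with these results known and was not tested. The medians with the GC and length offset were -0.16 for class II and 0.05 for class I.

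**Figure D3:**
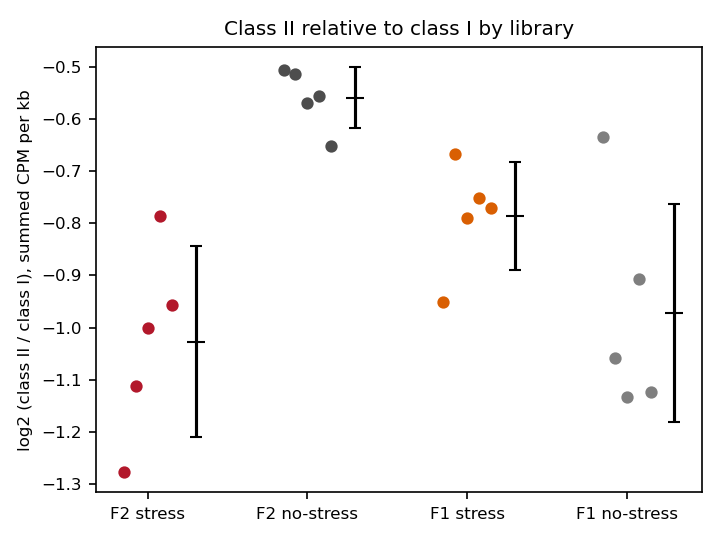
The log2 ratio of summed class II to summed class I level (CPM per kb of merged exons) in each library, with the mean and SD of each group of 5 mice. F2 stress libraries lie between -1.28 and -0.79 and F2 no-stress libraries between -0.65 and -0.51, while the F1 lineages overlap.

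Base composition moved with the F2 result. Hdac5, at 59.8% GC over its longest transcript, and Hdac7, at 60.2%, were in the highest decile of genes by GC content. In that decile the median F2 log2 fold change over all genes was -0.39, 26.8% of genes were called lower in the stress lineage and 0 were called higher. Hdac2 (41.9%) and Hdac8 (43.0%) were in the second-lowest decile, where the median was 0.17. Hdac9, at 45.03%, was the class II gene of lowest GC content and the 1 with a positive value. Members departed from the median of all genes in their decile to differing extents. Hdac5 (-0.68) lay below the median of -0.39, and Hdac7 (-0.47) lay closer to it. Hdac4 (52.5%, -0.30) and Hdac6 (52.6%, -0.32) lay below a median of -0.05, Hdac3 (47.1%, -0.09) lay below one of 0.10, and Hdac11 (57.4%, -0.12) lay above one of -0.23.

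A library's GC trend, the log2 deviation of its highest decile of genes by GC minus that of its lowest decile, averaged -0.19 ± 0.25 in F2 stress and 0.34 ± 0.27 in F2 no-stress mice (SD, n = 5 each). F2 stress replicate 15 had the highest trend of its group (0.21) and the highest Hdac5 level, and F2 no-stress replicate 20 had the lowest trend of its group (-0.10) and the lowest Hdac5 level. F2 stress replicate 14 also had a trend of -0.10, and its Hdac5 level was 71.4 CPM, against 99.7 CPM in replicate 20. Within groups, after the mean of each group was subtracted, log2 Hdac5 went with the trend over the 20 libraries at a Pearson r of 0.91 and a Spearman rho of 0.93, and r was 0.93 without the 2 libraries farthest from the median trend. The other 9 members had Pearson r between -0.43 (Hdac3) and 0.48 (Hdac11), and Hdac7, of nearly the same GC content as Hdac5, had -0.040, or 0.28 without the 2 libraries farthest from the median trend. These 10 correlations are descriptions with no test. With each library's trend as an offset, Hdac5 kept a negative value of -0.25, Hdac7 was at -0.05, and 8 of all genes tested were called in place of 1324. GC trend and lineage moved together in F2, and the part of the trend in the Hdac5 result was measured only through this offset.

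**Figure D4:**
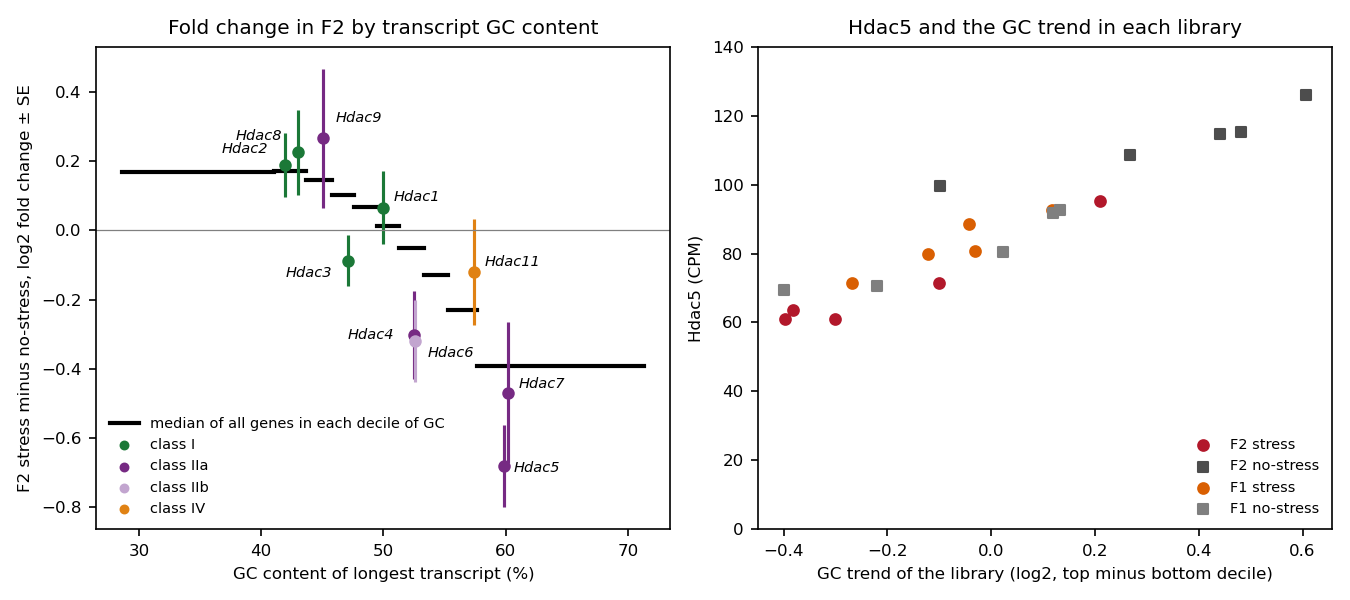
Left, F2 log2 fold change (stress minus no-stress, ± SE) of the 10 genes against the GC content of the longest transcript, with the median of all genes in each decile of GC content. Right, Hdac5 CPM against the GC trend of each of the 20 libraries, where F2 no-stress libraries with trends up to 0.61 have the highest Hdac5 levels.

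In F1, the same comparison of lineages called 0 of the 10 genes, where 0% of all genes were called. DESeq2 and limma-voom also called 0 members, and 1 member, Hdac7, had an unadjusted p below 0.05, as did 6.16% of all genes. Hdac7 had 17.8, 27.8, 23.4, 24.7 and 17.5 CPM in F1 stress mice, against 20.6, 15.8, 13.1, 16.3 and 14.6 CPM in F1 no-stress mice. The stress group lay mostly higher, the opposite of its F2 direction, with overlap through replicates 1, 5 and 6, and the log2 fold change was 0.47 ± 0.21 (adjusted p = 0.739, edgeR). Hdac5 had 71.5, 88.5, 80.0, 80.7 and 92.8 CPM in F1 stress mice, against 91.8, 80.5, 70.7, 92.6 and 69.5 CPM in F1 no-stress mice. The groups covered the same range, and the log2 fold change was 0.03 ± 0.12 (adjusted p = 0.956, edgeR). Hdac6 had 51.4, 59.3, 61.6, 56.3 and 49.6 CPM in F1 stress mice, against 57.2, 44.97, 45.3, 45.4 and 44.3 CPM in F1 no-stress mice, where replicate 6 alone overlapped the stress group (0.23 ± 0.12, adjusted p = 0.739, edgeR). Hdac2 had 74.6 ± 6.89 CPM in F1 stress and 82.9 ± 10.4 CPM in F1 no-stress mice (-0.15 ± 0.09). The 6 remaining members lay between 0.05 and 0.20 on the log2 scale.

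By class, the F1 median log2 fold change was 0.20 for class II, with 5 of 5 positive, and 0.05 for class I, with 3 of 4 positive, against 0.00 for all genes tested, of which 51% were positive. With the GC and length offset, the class II median was 0.11, with 3 positive and 2 negative, and the class I median was 0.05. The log2 ratio of class II to class I averaged -0.79 ± 0.10 in F1 stress and -0.97 ± 0.21 in F1 no-stress mice (SD, n = 5 each), and the groups overlapped.

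**Figure D5:**
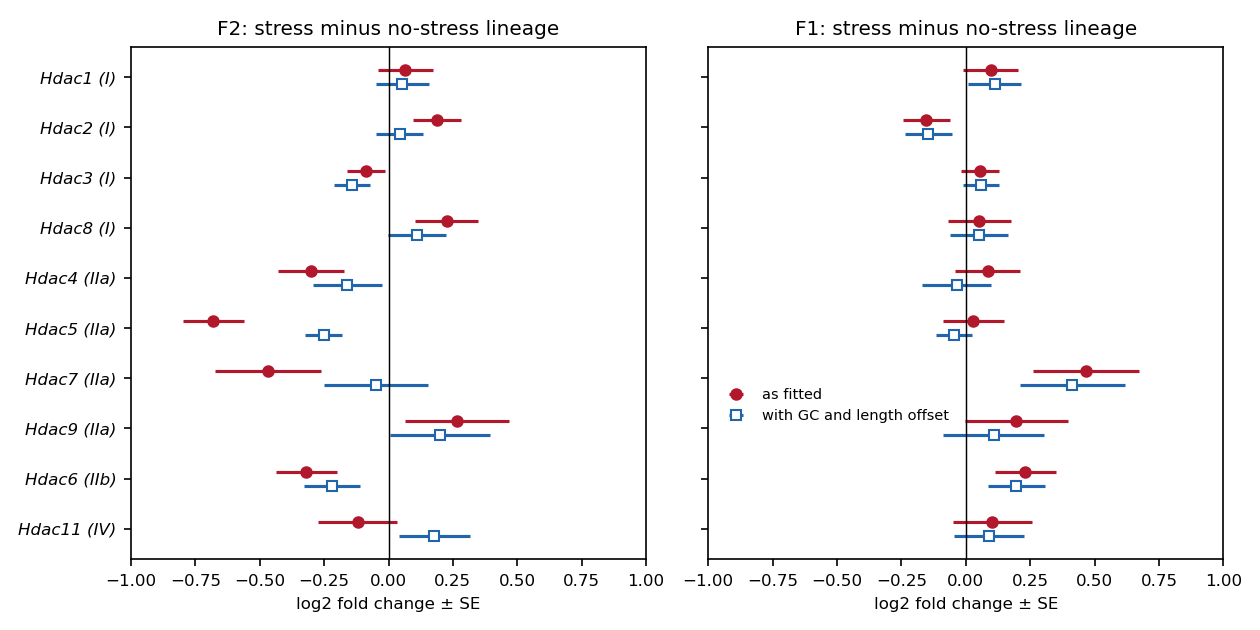
Log2 fold change (stress minus no-stress lineage, ± SE) of the 10 genes in F2 (left) and F1 (right), from the edgeR fit without (filled circles) and with (open squares) the GC and length offset. Hdac5 has the lowest F2 value, -0.68 without and -0.25 with the offset, and its F1 values lie near 0.

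The lineage difference itself differed between generations for Hdac5. The F2 effect minus the F1 effect was -0.71 ± 0.17 on the log2 scale (adjusted p = 0.0354, edgeR), and Hdac5 was the 1 member of 10 called, where 2.52% of all genes were called and 1.68% were called with a negative difference. Hdac7 (-0.94 ± 0.29, adjusted p = 0.0760), Hdac6 (-0.55 ± 0.17, adjusted p = 0.0716) and Hdac4 (-0.39 ± 0.18, adjusted p = 0.222) had negative differences that did not pass the edgeR test. DESeq2 called Hdac7 and Hdac6 as well, where it called 1178 of 29667 genes. Hdac2 had 0.34 ± 0.13 (adjusted p = 0.135, edgeR). The Hdac5 call was kept in 9 of the 20 edgeR fits without a single library, with adjusted p from 0.0184 to 0.0821, and missed in those without F1 stress replicates 2, 3 or 4, F1 no-stress replicates 7, 8 or 10, F2 stress replicates 11, 12 or 13, or F2 no-stress replicates 16 or 17. It was also missed with no filter on low counts (-0.70, adjusted p = 0.0529) and with the GC and length offset (-0.21, adjusted p = 0.346).

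Between generations, Hdac5 was called within the no-stress lineage, where it was higher in F2. F2 no-stress mice had 112.8 ± 9.64 CPM and F1 no-stress mice 81.0 ± 11.1 CPM (SD, n = 5 each), and every F2 library, at 99.7 CPM or above, exceeded every F1 library, at 92.6 CPM or below. The log2 fold change was 0.48 ± 0.12 (adjusted p = 0.0435, edgeR), the only call among the 10 members, where 2% of all genes were called, 1.47% were called higher, and 2.53% had groups that did not overlap with F2 higher. Hdac7 (0.68 ± 0.21, adjusted p = 0.0801) and Hdac6 (0.38 ± 0.12, adjusted p = 0.0860) did not pass the edgeR test but did pass in DESeq2, which called 992 of 29667 genes. This comparison uses the same F2 no-stress libraries as the F2 lineage comparison, so the results are not independent.

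The Hdac5 call between generations was kept in 8 of the 20 edgeR fits without a single library, with adjusted p from 0.0243 to 0.147. It was missed without F1 stress replicates 2, 3, 4 or 5, F1 no-stress replicates 7, 8 or 10, F2 stress replicates 12 or 13, or F2 no-stress replicates 16, 17 or 19. It was also missed with no filter on low counts (0.47, adjusted p = 0.0685), with only the no-stress groups in the fit (0.47, adjusted p = 0.0834) and with the GC and length offset (0.14, adjusted p = 0.400). Beside it in this comparison, edgeR also called 2 of 7 activity genes higher in F2, Npas4 (1.59) and Junb (1.13). It called 1 of 5 endothelial markers, Cldn5 (0.60), and 1 of 3 oligodendrocyte precursor markers, Gpr17 (0.81), where 1.47% of all genes were called higher. All 7 activity genes and all 5 endothelial markers were positive, and 1 precursor marker was negative. With the offset Gpr17 alone of these 4 was called (0.69, adjusted p = 0.0491, edgeR). In the stress lineage Gpr17 was also called higher in F2 with the offset (0.85, adjusted p = 0.0033, edgeR), and Hdac5 was not called. The part of endothelial, precursor or activity-dependent RNA in the Hdac5 value was not tested.

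In the stress lineage, F2 against F1 called 0 of the 10 members, where 0.012% of all genes were called. DESeq2 and limma-voom also called 0, and 0 members had an unadjusted p below 0.05, against 6.99% of all genes. Hdac5 had 70.4 ± 14.5 CPM in F2 stress and 82.7 ± 8.27 CPM in F1 stress mice, a log2 fold change of -0.23 ± 0.12 (adjusted p = 0.720, edgeR), and Hdac2 had 84.2 ± 9.69 CPM in F2 stress and 74.6 ± 6.89 CPM in F1 stress mice, with 0.18 ± 0.09 (adjusted p = 0.722, edgeR).

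Of the partner complexes given here, few genes were called in F2, and the calls went in both directions. The counts stand beside 7.92% of all genes called. In CoREST, 1 of 7 genes was called, Hmg20b, its HMG-box subunit, at -0.80 ± 0.18 (adjusted p = 0.0129, edgeR). In the mitotic deacetylase complex MiDAC, 1 of 3 genes tested was called, the zinc finger regulator Trerf1, at -0.50 ± 0.09 (adjusted p = 0.00667). In NuRD, 1 of 11 was called, the histone chaperone subunit Rbbp4, higher in F2 stress mice by 0.27 ± 0.07 (adjusted p = 0.0196, edgeR). DESeq2 called 4 of the 11, where it called 1992 of 29667 genes, low-count genes included. In Sin3, 2 of 13 were called, with Sap30 higher (0.68 ± 0.21, adjusted p = 0.0496) and Suds3 lower (-0.24 ± 0.06, adjusted p = 0.0188), both of them core subunits of the complex. None of these calls was kept with the GC and length offset, but the values did not all shrink. Under the offset Sap30 was at 0.74 (adjusted p = 0.107), Trerf1 at -0.35 (adjusted p = 0.0718), Rbbp4 at 0.20 (adjusted p = 0.243), Hmg20b at -0.38 (adjusted p = 0.262) and Suds3 at -0.10 (adjusted p = 0.445).

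Regulators and binding partners of class IIa enzymes gave 1 call in F2. Ywhab, a 14-3-3 protein, was higher in F2 stress mice by 0.32 ± 0.08 (adjusted p = 0.0201, edgeR). It was the 1 of 7 of that family called, where 7.92% of all genes were called. DESeq2 called 2 of the 7, where it called 1992 of 29667 genes. With the GC and length offset Ywhab was at 0.25 and not called (adjusted p = 0.144, edgeR). Of the 14 kinases, 0 were called by edgeR, DESeq2 or limma-voom, 1 had an unadjusted p below 0.05, and the smallest p values belonged to Sik3 (-0.23 ± 0.09) and Prkd2 (-0.46 ± 0.24). Of the 3 MEF2 factors tested, 0 were called by any of these tools and 0 had an unadjusted p below 0.05, with Mef2d at -0.17 ± 0.09 and Mef2c at 0.45 ± 0.25. Among cytoplasmic substrates and partners of Hdac6, 0 of 8 were called by any of them and 2 had an unadjusted p below 0.05, Vcp (0.17 ± 0.07) and Hsp90aa1 (0.27 ± 0.12).

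Deacylases and acetyltransferases of other families were read alongside. Of 7 class III sirtuins, NAD-dependent deacylases unrelated in sequence, 2 were called in F2. Both were lower in the stress than in the no-stress lineage, where 5.28% of all genes were called lower. Sirt6, a chromatin-bound deacylase, was at -0.76 ± 0.17 (adjusted p = 0.0148, edgeR) and Sirt7, a nucleolar one, at -0.57 ± 0.12 (adjusted p = 0.0121, edgeR). Under the GC and length offset, Sirt6 was at -0.44 and Sirt7 at -0.32, and neither was called. Of 12 histone acetyltransferases, the enzymes that oppose deacetylases, 0 were called by edgeR, DESeq2 or limma-voom and 4 had an unadjusted p below 0.05. The smallest p values were those of Hat1 (0.32 ± 0.12, adjusted p = 0.0954, edgeR) and Kat2a (-0.20 ± 0.08, adjusted p = 0.0981, edgeR). In F1, 0 genes of the partner, sirtuin and acetyltransferase lists were called by any of the 3 tools, and an unadjusted p below 0.05 was found for 1 sirtuin, 1 NuRD gene and 1 acetyltransferase. The difference of effects between generations was called for Sirt6 (-0.96), Trerf1 (-0.55) and Rbbp4 (0.37), and F2 no-stress exceeded F1 no-stress for Sirt6 (0.73), Sirt7 (0.52) and Trerf1 (0.42). These counts stand beside 2.52% of all genes called for the difference and 2% between generations, and none of these calls was kept with the GC and length offset (adjusted p from 0.157 for the difference in Sirt6 to 0.276 for Sirt7 between generations).

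Markers of cell types and of neuronal activity were read beside the Hdac5 result. In F2, 3 of 5 endothelial markers (Egfl7, Tie1 and Cldn5) were called lower in the stress than in the no-stress lineage, beside 5.28% of all genes. The summed level of the 5 ran from 95.9 to 173 CPM in F2 stress and from 138 to 165 CPM in F2 no-stress mice. Of 7 activity genes, 2 (Junb and Npas4) were called lower in F2 stress than in F2 no-stress mice. All 7 had negative values, as did 49.8% of all genes. Their summed levels were 166 to 429 CPM in F2 stress and 325 to 471 CPM in F2 no-stress mice. With the GC and length offset none of these 5 calls was kept (adjusted p from 0.0630 for Junb to 0.770 for Cldn5), and Egr1 (0.19) and Fos (0.0011) were positive. Without the offset, F2 against F1 gave positive values for 6 of 7 activity genes in the stress lineage and 7 in the no-stress lineage. The defining markers of both lists were detected in all groups. No marker of neurons, pallial excitatory, striatal, central amygdala or inhibitory neurons, astrocytes, oligodendrocytes, their precursors or microglia was called in F2 by edgeR or limma-voom. DESeq2 called 1 astrocyte marker, and an unadjusted p below 0.05 was found for 2 neuronal, 2 astrocyte, 1 inhibitory and 1 precursor marker. The part of endothelial or activity-dependent RNA in the Hdac5 and Hdac7 values was not tested.

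The genes whose values went most closely with Hdac5 were searched among 15569 genes, after the mean of each group was subtracted, over the 20 libraries. They were Mpnd (Pearson r = 0.94, Spearman rho = 0.93), Ppp1r16a (r = 0.93), Ndufs7 (r = 0.93), Map2k2 (r = 0.93) and Gm20683 (r = 0.92). Their transcripts had GC contents of 59.2% to 60.5%, beside 59.8% for Hdac5. These points share library and base composition, and the correlations are descriptions with no test.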

How the data were processed

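RNA-seq libraries of 20 mice were made with a stranded poly-A kit, per the labels' protocols. Per the submitters' processing notes, STAR 2.5.3a aligned the reads, with GRCm38 as the genome. How reads were counted (tool, annotation, strand, multi-mapping reads) is not given in the sources used here. As deposited by the authors, the values are whole-number counts for each Ensembl gene in each library. Their library totals run from 13654890 to 13714805, so a step not described brought the totals together and the original depth is unknown.

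From these counts, log2 fold changes, SEs and p-values came from edgeR 4.0.16 (R 4.3.3) with TMM factors, filterByExpr, robust quasi-likelihood dispersions (biological coefficient of variation 18.1%), 1 mean per group, all 20 libraries in 1 fit and Benjamini-Hochberg adjustment over 16727 genes. A gene was called at an adjusted p below 0.05. Of the table's genes, 29600 matched GENCODE M21, which gave lengths, GC content (16692 of the genes tested) and the printed sequences. Levels between genes are compared per kilobase of merged exons. Near-identical copies were searched with BLAST 2.17.0.

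Other settings were DESeq2 1.42.0, limma-voom (limma 3.58.1), RLE factors, library totals, no filter, a filter of 1 CPM in 5 libraries, only the groups compared, a GC and length offset (splines with 5 degrees of freedom) and each library left out. Leaving out replicates 14 (F2 stress) and 20 (F2 no-stress) together was added after the data were seen. Members and lists were chosen with earlier results of these data known. Named genes are all members, up to 4 called genes per list with the smallest p (otherwise the 2 with the smallest p), and the 5 genes most like Hdac5 by Pearson correlation among genes with a mean CPM of at least 1 (prior count 2). The result of 1 further list, of partners of Hdac3, is not reported here.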

Additional observations from a re-analysis of the deposited data

Results flagged for a closer look

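The lineage effect on Hdac5 in F2 and that in F1 differed by a test of the difference itself, at -0.71 on the log2 scale (adjusted p = 0.0354, edgeR). The call was kept in 9 of 20 edgeR fits without a single library, and was missed with no filter on low counts (adjusted p = 0.0529) and with the GC and length offset (-0.21, adjusted p = 0.346). Hdac5 was lower in all 5 F2 stress mice than in any F2 no-stress mouse, and the F1 lineages overlapped. Among the 44 groups of 5 values examined for a library far from the rest (the 10 genes and the class ratio in each group), 1 stood out, where chance gives about 1 in 20. It was Hdac6 in F1 no-stress replicate 6, at 57.2 CPM, against 44.3 to 45.4 CPM in the other 4 mice of its group. Without that library, Hdac2, Hdac5, Hdac6 and Hdac7 were called for the difference of lineage effects between generations. Over all genes, 855 of 16885 were called in that fit, against 421 of 16727 with all libraries.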

How the results depend on the processing

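No paired analysis was possible because every mouse has a replicate number of its own, from 1 to 20, and no group shares one. Of 440 member values recomputed under settings other than a single library left out, 413 kept their direction and side of the threshold and 8 changed sign. With the GC and length offset, Hdac4 (-0.036) and Hdac5 (-0.046) turned in the F1 lineage comparison, Hdac11 turned in F2 (0.18), in the difference of lineage effects (0.089), between generations in the stress lineage (0.029) and in the no-stress lineage (-0.060), and Hdac8 turned between generations in the no-stress lineage (0.0060). Without replicates 14 (F2 stress) and 20 (F2 no-stress), the difference of lineage effects for Hdac9 was -0.018. Members called in F2 numbered 1 in the reported fit, 0 with the offset, 0 with only the F2 groups and 5 without the 2 libraries. For the difference of lineage effects they numbered 1 as reported, 3 by DESeq2, 0 with no filter, 0 with the offset and 4 without the 2 libraries. Between generations in the no-stress lineage they numbered 1 as reported, 3 by DESeq2, 0 with no filter, 0 with the offset, 0 with only these groups and 2 without the 2 libraries.

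With single libraries left out, member calls ranged from 0 to 0 in F1, 1 to 3 in F2, 0 to 4 for the difference, 0 to 0 between generations in the stress lineage and 0 to 3 in the no-stress lineage. The log2 ratio of class II to class I, stress minus no-stress, ranged from -0.53 to -0.41 in F2 and from 0.15 to 0.27 in F1. Values that crossed 0 were Hdac5 in F1 (-0.022 to 0.081), Hdac1 in F2 (-0.0090 to 0.12), the difference for Hdac1 (-0.10 to 0.022) and Hdac9 (-0.028 to 0.23), Hdac11 between generations in the stress lineage (-0.21 to 0.056), and Hdac8 (-0.20 to 0.029) and Hdac9 (-0.056 to 0.14) in the no-stress lineage. The cause was not tested.

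Over all genes, 1324 were called in F2, but 1992 by DESeq2, 737 with no filter, 8 with the offset, 0 with only the F2 groups, 2213 without the 2 libraries and 241 to 2431 without single ones. For the difference, 421 were called (140 higher, 281 lower), but 1178 by DESeq2 (553 higher, 625 lower), 100 with no filter, 0 with the offset, 1643 without the 2 libraries and 0 to 1501 without single ones. Between generations in the no-stress lineage, 335 were called (246 higher, 89 lower), but 992 by DESeq2 (572 higher, 420 lower), 208 with library totals, 61 with no filter, 9 with the offset, 0 with only these groups, 631 without the 2 libraries and 0 to 725 without single ones. The depth before the totals were brought together is unknown, so it cannot be said how far depth limits the low-count members.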

Other observations

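Hdac10, the other class IIb deacetylase and one that acts on polyamines, was read off the same fit after its values were seen, and it is not among the 10 genes. Its log2 fold change in F2 was -0.61 ± 0.15 (adjusted p = 0.0216, edgeR), that in F1 was 0.26 ± 0.15 (adjusted p = 0.739, edgeR), and their difference was -0.87 ± 0.22 (adjusted p = 0.0425, edgeR). F2 no-stress mice exceeded F1 no-stress mice by 0.66 ± 0.15 (adjusted p = 0.0353, edgeR). With the GC and length offset, none of these calls was kept. The F2 value was then -0.36 (adjusted p = 0.300, edgeR) and the difference -0.62 (adjusted p = 0.224, edgeR). The value between generations in the no-stress lineage was 0.46 (adjusted p = 0.235, edgeR).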
